A study of Mus musculus with 6 samples.

Results

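The genes described here carry glucose into the cell and take it through the first, regulated steps of glycolysis: the glucose transporters Slc2a1 and Slc2a3, the hexokinases Hk1 and Hk2, the glucose phosphate isomerase Gpi1, the phosphofructokinase subunits Pfkl, Pfkm and Pfkp, and the bifunctional enzymes Pfkfb3 and Pfkfb4. They were chosen by name, and each was read from the probe sets of the Affymetrix mouse genome array that are annotated to its symbol alone. Of these 10 genes, 9 had such a probe set, 20 probe sets in all, among 18193 genes and 45037 probe sets measured. No probe set was annotated to Gpi1 alone, and this gene is not analysed here.

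The arrays measured bulge epithelial cells of vibrissa (whisker) follicles from mice of 7 to 8 weeks, which were embedded as single cells in atelocollagen, a collagen gel, and cultured for 6 days. NFFSE medium held Noggin, an inhibitor of BMP signaling, FGF-7, FGF-10, SAG, an agonist of hedgehog signaling, and EGF. NFFS medium held the same factors without EGF, so that Noggin, both FGFs and SAG are common to all samples and the media differ by EGF alone. The experiment was performed 3 times and gave 3 NFFSE arrays and 3 NFFS arrays, which the labels call biological replicates. Each gene was described by its MAS5 signal, a linear intensity, and by the difference of mean log2 signals as NFFSE minus NFFS, and it was called higher or lower where limma gave an adjusted p under 0.05 over all genes.

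The label of the cells was checked against marker genes. Krt5, a keratin of basal epithelial cells, averaged 35579 ± 2849.7 in NFFSE and 28201 ± 2184 in NFFS (SD, n = 3 each). The marker counts are to be read against the 11.0% of all genes called higher and the 15.2% called lower. Of 10 epithelial markers, 4 were higher in NFFSE and 1, the bulge keratin Krt15, was lower. Of 10 fibroblast markers, 4 were lower in NFFSE and 0 higher, with a summed signal of 2679 to 2762 in NFFSE and 6539.9 to 7690.2 in NFFS. The 4 were Sparc, which made up most of that sum (2215 ± 39.2 in NFFSE and 6331 ± 636 in NFFS; SD, n = 3 each), the collagen chain Col1a2 (means of 72.2 in NFFSE and 173 in NFFS), Thy1 (32.9 in NFFSE and 99.7 in NFFS) and Vim (111 in NFFSE and 262 in NFFS). The collagens Col1a1 (mean 41.0 in NFFSE and 33.7 in NFFS) and Col3a1 (31.6 in NFFSE and 30.4 in NFFS) were not called and lay close to the background signal of 22.7. None of 6 melanocyte, 7 leukocyte and 6 endothelial markers was called. Of 4 measured smooth muscle and Schwann markers, 1 was lower. The 3' minus 5' log2 signal of Gapdh, a measure of RNA integrity, was -0.37 ± 0.011 in NFFSE and -0.62 ± 0.017 in NFFS (SD, n = 3 each). A two-sided exact permutation test of it gave p = 0.1, and 3 against 3 arrays allow no smaller p. The same measure of b-actin was 0.274 ± 0.0186 in NFFSE and 0.333 ± 0.0593 in NFFS (SD, n = 3 each). That of the transferrin receptor was 1.201 ± 0.378 in NFFSE and 0.971 ± 0.259 in NFFS (SD, n = 3 each). Both gave a larger p in the same test. The transferrin receptor differed in the direction of Gapdh and b-actin in the opposite direction, each by less than its SD in NFFS. The part of these differences in the results below was not tested. In bulk samples, a smaller share of one kind of cell cannot be told apart from less RNA per cell.

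Glucose enters epithelial cells by facilitated diffusion through transporters of the Slc2a family, and hexokinase traps it inside the cell as glucose 6-phosphate. Glucose phosphate isomerase turns this into fructose 6-phosphate, and phosphofructokinase 1, a tetramer of liver, muscle and platelet subunits in proportions that differ between tissues, adds the second phosphate in the committed step of glycolysis. Its strongest activator, fructose 2,6-bisphosphate, is made and broken down by the bifunctional PFKFB enzymes. Each step is served by several isozymes that differ in kinetics and regulation, and transcripts of several of them are known targets of growth factor, MYC and hypoxia signaling in other cells.

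Of the 9 genes measured, 5 were higher in NFFSE, namely Slc2a1, Hk1, Pfkl, Pfkp and Pfkfb3. Of all genes, 11.0% were called higher. None of the 9 was called lower in this fit, which did not pair the arrays, against 15.2% of all genes. Slc2a3, Hk2, Pfkm and Pfkfb4 did not pass the test. Thus each step with more than one isozyme had at least one gene that was higher in NFFSE and one that was not called. For the same 5 genes, every NFFSE array lay above every NFFS array, which held for 18.5% of all genes. For 1 gene, Slc2a3, every NFFSE array lay below every NFFS array, which held for 22.0%. The median log2 difference was 1.40 over the 9 genes and -0.011 over all genes. When the arrays were instead centered on their medians, the median over all genes was 0.19. The split of all genes turned to 2916 higher and 1784 lower, against 2002 higher and 2771 lower as scaled by the authors, and the same 5 of the 9 genes were called higher. Over single probe sets, 11 of 20 were higher in NFFSE and 0 lower, against 7.69% and 12.7% of all probe sets.

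**Figure D1:**
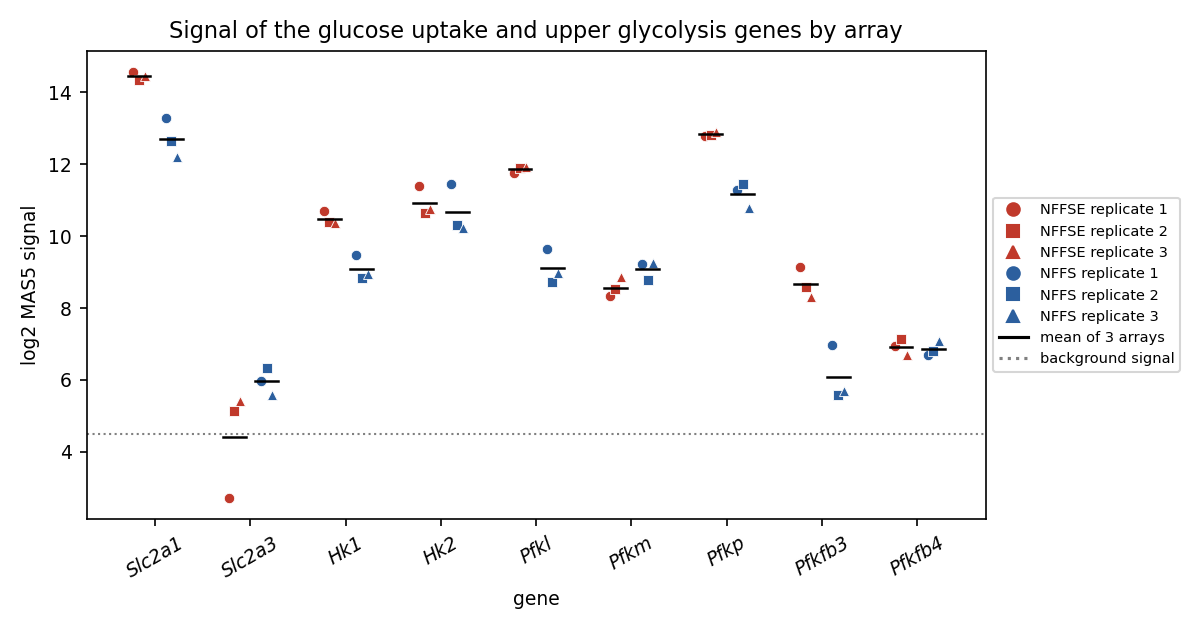
Log2 MAS5 signal (vertical axis) of the 9 genes (horizontal axis) on each array, with the 3 NFFSE arrays left of the 3 NFFS arrays for each gene, points for single arrays, bars for the means and a dotted line at the background signal. For Slc2a1, Hk1, Pfkl, Pfkp and Pfkfb3 all NFFSE points lie above all NFFS points, those of Hk2, Pfkm and Pfkfb4 overlap, and those of Slc2a3 lie lower in NFFSE and near the background of 22.7.

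The DNA just before the transcription start is shown for the 5 measured genes with a single window in the promoter table used, 3 of which were called higher in NFFSE (Slc2a1, Pfkl and Pfkp) and 2 of which were not called (Hk2 and Pfkfb4). Each line is the 250 bases before the start site of that table (RefSeq, GRCm38.p6), read 5′ to 3′ on the strand of the gene, at chr4:119108495-119108744 on the plus strand for Slc2a1, chr10:78009808-78010057 on the minus strand for Pfkl, chr13:6648772-6649021 on the minus strand for Pfkp, chr6:82774455-82774704 on the minus strand for Hk2 and chr9:108991652-108991901 on the plus strand for Pfkfb4. Capitals mark the core letters of the hypoxia response element, ACGTG or GCGTG, on either strand. The windows of Pfkp and Pfkfb4 lie inside the annotated range of the gene given with its values below, which begins further upstream.
Slc2a1: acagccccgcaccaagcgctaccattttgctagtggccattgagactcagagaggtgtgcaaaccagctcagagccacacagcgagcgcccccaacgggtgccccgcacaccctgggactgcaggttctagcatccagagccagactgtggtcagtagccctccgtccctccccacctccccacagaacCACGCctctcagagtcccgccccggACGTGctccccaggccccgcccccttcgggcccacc
Pfkl: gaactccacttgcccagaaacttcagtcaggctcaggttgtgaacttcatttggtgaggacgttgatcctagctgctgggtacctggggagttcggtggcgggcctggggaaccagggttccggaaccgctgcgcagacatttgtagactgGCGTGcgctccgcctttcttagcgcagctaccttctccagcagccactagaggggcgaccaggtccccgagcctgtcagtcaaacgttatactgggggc
Pfkp: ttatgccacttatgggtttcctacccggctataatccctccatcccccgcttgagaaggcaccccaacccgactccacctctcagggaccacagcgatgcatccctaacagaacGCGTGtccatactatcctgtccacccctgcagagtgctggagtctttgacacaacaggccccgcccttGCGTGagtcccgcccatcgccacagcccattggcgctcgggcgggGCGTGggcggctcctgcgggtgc
Hk2: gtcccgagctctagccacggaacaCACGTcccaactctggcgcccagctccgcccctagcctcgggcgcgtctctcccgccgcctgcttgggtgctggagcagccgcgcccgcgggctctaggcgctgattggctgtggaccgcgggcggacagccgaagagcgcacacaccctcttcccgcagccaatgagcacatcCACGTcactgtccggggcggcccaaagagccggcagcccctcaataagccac
Pfkfb4: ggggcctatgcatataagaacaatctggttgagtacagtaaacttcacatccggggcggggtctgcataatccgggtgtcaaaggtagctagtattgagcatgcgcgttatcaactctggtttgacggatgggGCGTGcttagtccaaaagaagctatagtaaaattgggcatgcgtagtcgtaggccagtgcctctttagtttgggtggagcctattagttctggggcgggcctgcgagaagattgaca
The window held 2 matches in Slc2a1, 1 in Pfkl, 3 in Pfkp, 2 in Hk2 and 1 in Pfkfb4, so that genes that were called and genes that were not both held them. Of 32851 promoter windows of the same length, 38.6% held at least 1 match. Of the windows not shown, that of Gpi1, 1 of Hk1 and 1 of Pfkm held no match. The windows shown had a GC content of up to 69.6%, against a median of 52.4% over all windows, and only that of Pfkfb4 lay below this median. The shares were not adjusted for GC content, and an enrichment of matches was not tested. The E-box CACGTG, which contains the letters ACGTG, was in none of the 5 windows shown and in 6.02% of all windows. Of the windows not shown, 1 of Pfkm and 1 of Pfkfb3 held it. A match describes only the letters, and binding was not measured.

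Of the transporters, Slc2a1 (GLUT1, the main basal glucose carrier of keratinocytes, GRCm38.p6 chr4:119108745-119137330) gave signals of 24134, 20551 and 22172 in NFFSE and 10036, 6338 and 4676 in NFFS. The NFFSE arrays were within a narrow range and well above all NFFS arrays, among which replicate 1 was the highest. The means were 22286 ± 1794 in NFFSE and 7017 ± 2743 in NFFS (SD, n = 3 each), 3.33-fold higher in NFFSE (log2 difference 1.74, SE 0.23, limma adjusted p = 3.16e-04). Its other 2 probe sets were 4.01-fold and 4.28-fold higher in NFFSE, so that all 3 probe sets of Slc2a1 were called in the same direction.

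Slc2a3 (GLUT3, a transporter with high affinity for glucose that is best known from neurons, chr6:122727809-122802363) gave low signals in both media. Its brightest probe set gave 6.62, 35.4 and 42.6 in NFFSE and 62.8, 80.8 and 47.5 in NFFS. The media did not overlap, but 1 NFFSE array was at background. The log2 difference was -1.53 (SE 0.68, 95% interval -3.05 to -0.0078) and did not pass the adjusted test (limma adjusted p = 0.138). Without NFFSE replicate 1, the array at background, it was -0.68 (limma adjusted p = 0.316). Another of its 4 probe sets was called in the opposite direction, with signals of 26.8, 6.30 and 31.6 in NFFSE and 1.94, 3.37 and 1.37 in NFFS (log2 difference 3.07, limma adjusted p = 0.0347 over all probe sets). All NFFS arrays and 1 NFFSE array were at background there, and no fold is given. This call was lost with the repeats as a block (limma adjusted p = 0.0523) and without NFFSE replicate 1 or 3 or NFFS replicate 1 or 3 (log2 differences of 2.65 to 3.03). The other 2 probe sets gave -0.18 and -0.19. The probe sets of Slc2a3 therefore disagreed in direction, and each of them had at least 1 array at background.

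Hk1, the hexokinase present in most tissues, and Hk2, the form typical of insulin-sensitive and fast-growing tissues, both bind to mitochondria and carry out the same reaction. Hk1 (chr10:62268855-62379920) gave 1667, 1332 and 1320.1 in NFFSE and 711, 455 and 489 in NFFS. Every NFFSE array was above every NFFS array, and the means of 1439.8 ± 197 in NFFSE and 552 ± 139 in NFFS (SD, n = 3 each) differed 2.65-fold (log2 difference 1.40, SE 0.18, limma adjusted p = 2.65e-04). A dimmer probe set of Hk1 was 2.79-fold higher in NFFSE (limma adjusted p = 0.00514 over all probe sets), and a further probe set that lists Hk1 with other genes was left out.

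Hk2 (chr6:82725025-82774454), which has 1 probe set, gave 2674, 1588 and 1711 in NFFSE and 2817, 1259 and 1187 in NFFS. Replicate 1 was the highest of its medium in both, and the arrays of the media overlapped. The means were 1991 ± 594 in NFFSE and 1754 ± 921 in NFFS (SD, n = 3 each), with a log2 difference of 0.26 (SE 0.31, 95% interval -0.43 to 0.95, limma adjusted p = 0.609). Within the repeats, the log2 difference of Hk2 was -0.075, 0.34 and 0.53 in repeats 1, 2 and 3. Without single arrays it lay between 0.030, without NFFSE replicate 1, and 0.66, without NFFS replicate 1 (limma adjusted p = 0.962 and 0.0518), and did not pass the threshold.

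Of the subunits of phosphofructokinase 1, Pfkl, the liver type subunit, was higher in NFFSE. Pfkl (chr10:77986947-78009807) gave 3418, 3836 and 3910.4 in NFFSE and 806, 425 and 502 in NFFS, so that the lowest NFFSE array was far above the highest NFFS array. The means of 3722 ± 265 in NFFSE and 577 ± 201 in NFFS (SD, n = 3 each) differed 6.68-fold (log2 difference 2.74, SE 0.20, limma adjusted p = 1.02e-05). A second probe set was 5.28-fold higher in NFFSE, whereas the third, which averaged 98.6 in NFFSE and 75.7 in NFFS, was not called (log2 difference 0.34). The mean of all 3 probe sets gave a log2 difference of 1.83.

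Pfkp, the platelet type subunit (chr13:6579874-6649060), gave 7039, 7157 and 7633 in NFFSE and 2504, 2779 and 1759 in NFFS. The NFFSE arrays were close to each other and all above the NFFS arrays. The means were 7276 ± 314 in NFFSE and 2347 ± 528 in NFFS (SD, n = 3 each), a 3.16-fold difference (log2 difference 1.66, SE 0.16, limma adjusted p = 4.25e-05). Of its other probe sets, one was 3.34-fold higher in NFFSE and the third, with means of 65.3 in NFFSE and 49.3 in NFFS, was not called (limma adjusted p = 0.447 over all probe sets).

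Pfkm, the muscle type subunit (chr15:98092589-98132447), was the only subunit of phosphofructokinase 1 with lower values in NFFSE. Its single probe set gave 323, 366 and 464 in NFFSE and 594, 435 and 609 in NFFS, where the highest NFFSE array exceeded the lowest NFFS array. The means were 384 ± 72.0 in NFFSE and 546 ± 96.0 in NFFS (SD, n = 3 each), and the log2 difference of -0.51 (SE 0.19, 95% interval -0.92 to -0.088) did not pass the threshold (limma adjusted p = 0.0756). It passed with the repeats of the experiment as a block (limma adjusted p = 0.040), without the NFFSE array of replicate 3 (log2 difference -0.65, limma adjusted p = 0.0424) and without the NFFS array of replicate 2 (log2 difference -0.66, limma adjusted p = 0.0245). It was -0.39 without NFFSE replicate 1 (limma adjusted p = 0.223), and -0.31 when the arrays were centered on their medians (limma adjusted p = 0.294). The difference was negative in each of the repeats, at -0.88, -0.25 and -0.39 on the log2 scale.

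Of the bifunctional enzymes, Pfkfb3, which has a high kinase activity and is known as a growth-induced form, was higher in NFFSE. Pfkfb3 (chr2:11471430-11554071) gave 566, 384 and 318 in NFFSE and 124, 48.3 and 51.9 in NFFS, with no overlap, and replicate 1 was the highest of each medium. The NFFS signals of 48.3 and 51.9 were low, in the range of the brightest probe set of Slc2a3 in NFFS, and above the background of 22.7. The means were 423 ± 129 in NFFSE and 74.9 ± 43.0 in NFFS (SD, n = 3 each), 6.05-fold higher in NFFSE (log2 difference 2.60, SE 0.37, limma adjusted p = 5.81e-04). A dimmer probe set, which averaged 93.0 in NFFSE and 40.2 in NFFS, gave a log2 difference of 1.41 and narrowly missed the threshold (limma adjusted p = 0.0565 over all probe sets). It passed without the NFFS array of replicate 1 (log2 difference 1.93, limma adjusted p = 0.0103). With all arrays, it passed with centering on medians, quantile normalization and the filter on dim genes (limma adjusted p = 0.0356, 0.0377 and 0.0313). It did not pass in the other settings run on probe sets.

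Pfkfb4, the form first described in testis (chr9:108988272-109032236), gave 124, 141 and 103 in NFFSE and 104, 111 and 137 in NFFS from its single probe set. The arrays of the media were mixed, with means of 123 ± 19.4 in NFFSE and 117 ± 17.3 in NFFS (SD, n = 3 each). The log2 difference was 0.063 (SE 0.25, 95% interval -0.50 to 0.63, limma adjusted p = 0.90), and its sign differed between the repeats.

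**Figure D2:**
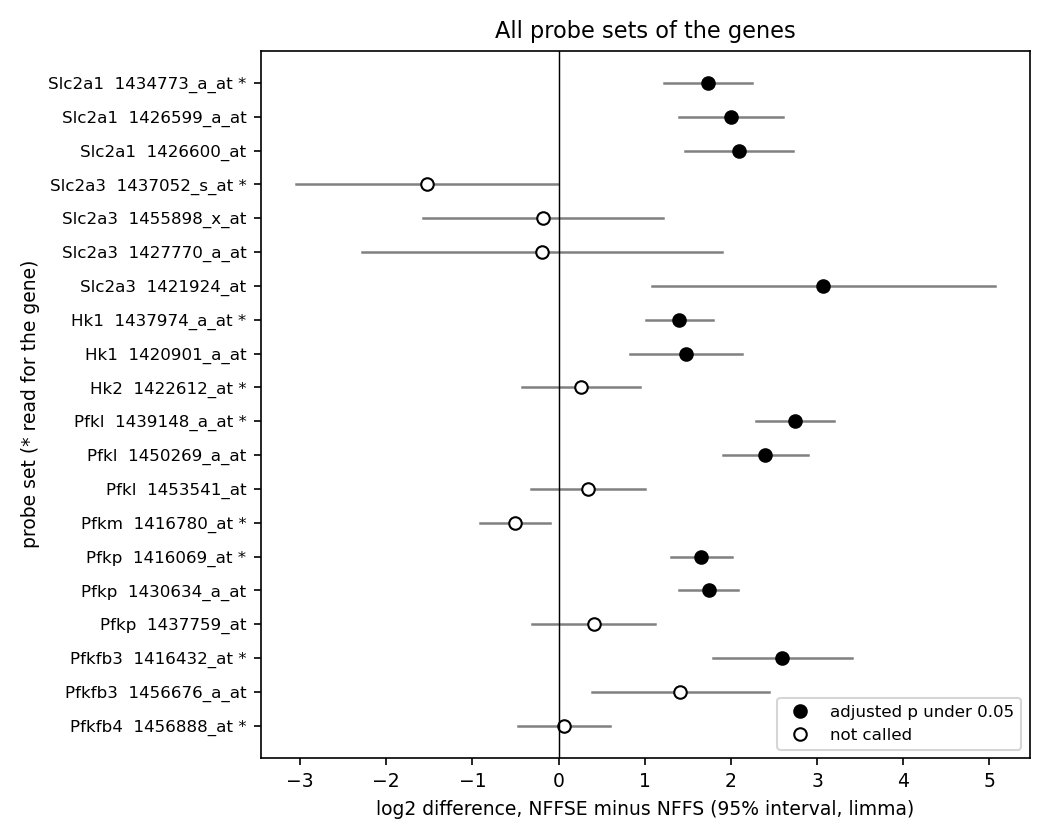
Log2 difference, NFFSE minus NFFS (horizontal axis), with its 95% interval from limma for each of the 20 probe sets of the 9 genes, where filled points passed the threshold. The 3 probe sets of Slc2a1 and both of Hk1 lie to the right of 0, Pfkl, Pfkp and Pfkfb3 each have 1 probe set that was not called, and the 4 probe sets of Slc2a3 lie on both sides of 0 with wide intervals.

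Across the repeats, the 5 genes called higher had a positive difference in each. The log2 differences in repeats 1, 2 and 3 were 1.27, 1.70 and 2.25 for Slc2a1, 1.23, 1.55 and 1.43 for Hk1, 2.08, 3.17 and 2.96 for Pfkl, 1.49, 1.36 and 2.12 for Pfkp, and 2.19, 2.99 and 2.62 for Pfkfb3. Except for Pfkp, the smallest of these differences was that of repeat 1. Slc2a1, Hk1, Hk2, Pfkl and Pfkfb3 had their highest NFFS signal on the array of replicate 1, which was the highest NFFS array for 5 of the 9 genes and for 34.0% of all genes.

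Whether isozymes of one step differed in their change was asked with the log2 ratio of their signals within each array. A constant factor of an array cancels in this ratio, whereas quantile normalization can change it. Probe sets bind with unequal strength, so that only the change of a ratio between the media is given and not which isozyme was more abundant. For each of the 6 pairs, the 3 NFFSE arrays and the 3 NFFS arrays did not overlap, and the exact permutation test (two-sided) gave p = 0.1. This is the smallest p of the design and was 0.1 after adjustment over the 6 pairs, so that no pair could pass the threshold. Each pair includes a gene that was called higher on its own and whose arrays did not overlap between the media. On the log2 scale, Pfkp over Pfkl is also the difference of the other pairs of phosphofructokinase subunits. The lack of overlap is therefore not independent of the calls of single genes, and its share over other pairs of genes was not tested.

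Apart from Slc2a3 over Slc2a1, which rests on dim signals and is given below, the largest change was that of Pfkl over Pfkm. Its ratio was 9.49-fold higher in NFFSE (log2 3.25, SE 0.24, 95% interval 2.59 to 3.90). Pfkp over Pfkm was 4.48-fold higher in NFFSE (log2 2.16, SE 0.35, 95% interval 1.19 to 3.14). Both log2 changes were smaller after averaging over every probe set of a gene, at 2.33 for Pfkl over Pfkm and 1.78 for Pfkp over Pfkm. The ratio of Pfkp over Pfkl was 2.12-fold lower in NFFSE (log2 -1.08, SE 0.34, 95% interval -2.01 to -0.15). It was -0.56 when all probe sets of a gene were averaged and -0.75 without the NFFS array of replicate 2.

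The ratio of Hk2 over Hk1 was 2.20-fold lower in NFFSE (log2 -1.14, SE 0.25, 95% interval -1.83 to -0.45), and stayed between -1.29 and -0.94 without any single array. Pfkfb4 over Pfkfb3 was 5.79-fold lower in NFFSE (log2 -2.53, SE 0.57, 95% interval -4.12 to -0.95), and its change was -1.94 with the mean of all probe sets. Slc2a3 over Slc2a1 gave -3.27 (SE 0.96, 95% interval -5.93 to -0.60). This value rests on the dim signals of Slc2a3, and it was -2.36 without the NFFSE array of replicate 1 and -1.65 with the mean of all probe sets.

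**Figure D3:**
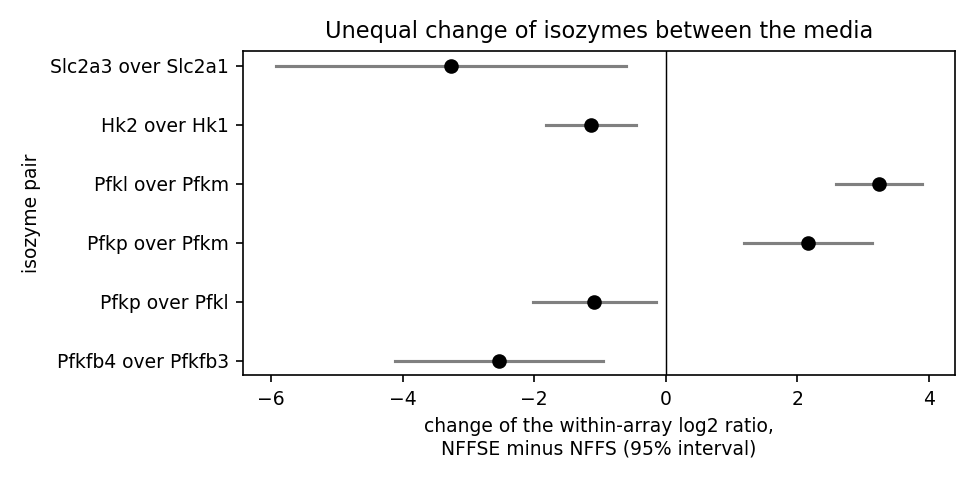
Change between the media of the log2 ratio of 2 isozymes within an array, as NFFSE minus NFFS (horizontal axis), for the 6 pairs (rows), with points for the change and lines for its 95% interval. Pfkl over Pfkm and Pfkp over Pfkm lie to the right of 0, at 3.25 and 2.16, and the other 4 pairs to the left, with no interval reaching 0. The intervals are t intervals of the unpaired arrays without adjustment over the pairs, and in the exact permutation test no pair could pass the threshold.

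The neighboring pathways of glucose were read in the same way, from lists drawn up by pathway. Their counts are to be read against the 11.0% of all genes that were higher in NFFSE and the 15.2% that were lower. Of the 65 measured genes of these lists, 19 were higher in NFFSE, 7 lower and 39 not called, with a median log2 difference of 0.20. Of 11 other glucose transporters, 2 were higher and 0 lower (median -0.15). Slc5a1, which takes up glucose together with sodium, averaged 169 ± 22.2 in NFFSE and 48.0 ± 16.9 in NFFS (SD, n = 3 each) and was 3.67-fold higher (limma adjusted p = 0.00239). Slc2a6 was at background on all NFFS arrays (at least 1.58-fold higher, limma adjusted p = 0.038) and lost its call without any array other than NFFS replicate 2 (log2 differences of 1.42 to 1.88). It also lost it with the repeats as a block (limma adjusted p = 0.0559) and with a floor of 32 under the signals (limma adjusted p = 0.328). Of 11 measured genes of the other hexokinases and the enzymes that counter or regulate the upper steps, only Slc37a4, the glucose 6-phosphate carrier of the endoplasmic reticulum, was called, at 522 ± 8.69 in NFFSE and 242 ± 47.2 in NFFS (SD, n = 3 each).

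Of 11 measured genes downstream of phosphofructokinase, from aldolase to lactate export, 9 were higher in NFFSE and 2 lower, with a median of 1.35. The lactate exporter Slc16a3 (MCT4) averaged 496 in NFFSE and 49.9 in NFFS and was 10.3-fold higher (log2 difference 3.36, SE 0.28, limma adjusted p = 2.06e-05). Tpi1, triose phosphate isomerase, was 3.29-fold and Ldha, the lactate dehydrogenase subunit that favors lactate formation, 2.65-fold higher in NFFSE. Ldhb, the heart type subunit of lactate dehydrogenase, was lower, with 1431 ± 50.9 in NFFSE and 3279 ± 163 in NFFS (SD, n = 3 each; limma adjusted p = 1.77e-05). The other lower gene, Eno2, was at background on all NFFSE arrays and at least 1.45-fold lower there (limma adjusted p = 0.0371). It was no longer called with a floor of 32 (limma adjusted p = 0.312), nor without NFFSE replicate 2, NFFS replicate 1 or NFFS replicate 2 (limma adjusted p = 0.0926, 0.137 and 0.107).

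The branches that leave glycolysis at the hexose phosphates were more mixed. Of 7 measured genes of the pentose phosphate pathway, 2 were higher and 0 lower (median 0.020). Pgd was 2.26-fold and Tkt 1.39-fold higher in NFFSE, a call that Tkt lost without NFFSE replicate 2 or 3 or NFFS replicate 1 or 3 (log2 differences of 0.39 to 0.49) and with quantile normalization (0.23). Of 8 measured genes of glycogen metabolism, 3 were higher and 1 lower (median 0.33). The phosphoglucomutase Pgm1 was 3.58-fold and the glycogen synthase Gys1 4.33-fold higher. Pgm2 was 1.38-fold higher, a call it lost without NFFSE replicate 1 or 2 or NFFS replicate 3 (log2 differences of 0.43 to 0.46). The lower gene, the glycogen phosphorylase Pygb, averaged 1287 ± 186 in NFFSE and 4357 ± 946 in NFFS (SD, n = 3 each). Of 7 genes of the hexosamine pathway, 1 was higher and 2 lower (median -0.22), with Uap1 3.87-fold higher and the O-GlcNAc hydrolase Oga lower by 0.59 on the log2 scale. The second lower gene, Gfpt1, gave -0.57 and lost its call with the mean of its 6 probe sets (0.019, limma adjusted p = 0.979), when the arrays were centered on their medians (-0.37) and without NFFSE replicate 2 or 3 or NFFS replicate 1 or 3 (-0.52 to -0.42).

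Of 10 known regulators of glucose uptake, 1 was higher and 2 lower (median -0.020). Txnip, which removes GLUT1 from the cell surface and is itself induced by glucose, averaged 722 ± 88.0 in NFFSE and 2649.5 ± 399 in NFFS (SD, n = 3 each), 3.66-fold lower in NFFSE (log2 difference -1.87, limma adjusted p = 1.34e-05). Myc was 1.62-fold higher (limma adjusted p = 0.0132) and the AMPK subunit Prkaa1 gave a log2 difference of -0.54 (limma adjusted p = 0.0194). Myc lost its call without NFFSE replicate 2 or 3 or NFFS replicate 1 (log2 differences of 0.54 to 0.67). Prkaa1 lost its call without NFFSE replicate 2 (-0.43) or NFFS replicate 3 (-0.47) and with the arrays centered on their medians (-0.34) or quantile normalized (-0.43). Hif1a gave a log2 difference of 0.16 and was not called (limma adjusted p = 0.345).

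**Figure D4:**
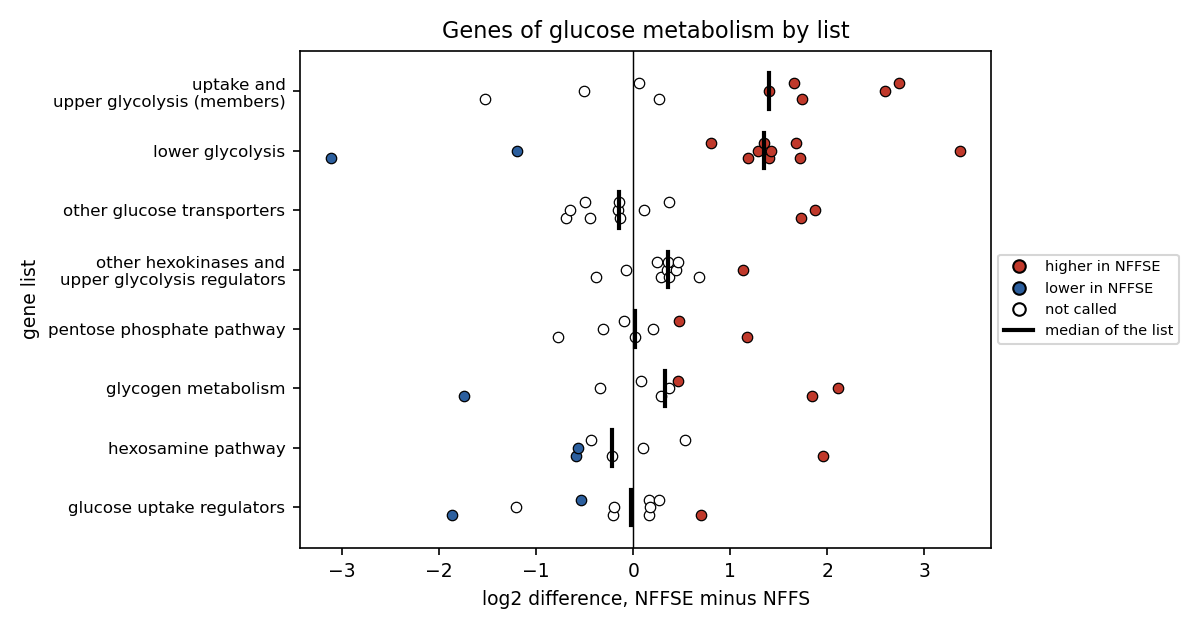
Log2 difference, NFFSE minus NFFS (horizontal axis), of each measured gene in the uptake and upper glycolysis genes and the neighboring pathway lists (rows), with colors for genes called higher, lower or not called and a bar at the median of each list. Most genes of lower glycolysis lie to the right of 0 with a median of 1.35, whereas the other glucose transporters, the pentose phosphate pathway and the hexosamine pathway have medians of -0.15, 0.020 and -0.22.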

How the data were processed

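Bulge epithelial cells cultured in NFFSE or NFFS medium were measured on 6 arrays, 3 for each medium, and their number limits the precision. The deposited intensity values are MAS5 signals on a linear scale, a method named in the submitters' processing notes with a version that is not given in the sources used here, and all arrays had been brought by the authors to one trimmed mean, without the lowest and highest 2%. Median signals were 56.3, 57.4 and 64.8 in NFFSE and 66.2, 70.5 and 68.2 in NFFS. Of 45101 probe sets, 64 controls were left out, 34945 had 1 gene symbol, 932 several and 9160 none, and 34741 gene numbers matched RefSeq (GRCm38.p6).

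The probe set of highest mean log2 signal stood for its gene. Log2 signals were fitted with limma 3.58.1 (R 4.3.3, intensity trend) over 18193 genes, and in a second fit over 45037 probe sets, with Benjamini-Hochberg adjustment and a threshold of 0.05. The fit was tried on simulated data with independent noise, in which changes were set only in genes above the median signal. That trial does not cover dim genes or the pairing of the arrays. Folds are antilogs of log2 differences, and means and SDs are linear. Background was any signal up to 22.7, the maximum over 18 values of a bacterial control transcript (TrpnX), and where the lower medium was at background the fold was taken against that signal or the array's own, if higher. Isozyme ratios were compared with exact permutation tests. All 10 genes were named, and of each other list up to 4 called genes with the smallest p. Eno2, to complete a count, and the uncalled Hif1a, Krt5, Col1a1 and Col3a1 were named after their values were seen. The genes and lists were chosen with earlier results of these data known.

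By the series design, the isolated cells were split between the media and this was repeated, so the replicate numbers pair the arrays. The deviations of same-numbered arrays from their group means correlated at 0.22, 0.11 and 0.14, and those of differently numbered arrays at -0.12 to -0.015. The main fit did not use this pairing, and the fit with the replicate as a block was an alternative. The other alternatives were another scaling (medians, quantiles), the mean of all probe sets, a floor of 32, an addition of 16, a filter on genes below the 40th percentile in both media, no intensity trend, the t-test of the methods and each array left out in turn.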

Additional observations from a re-analysis of the deposited data

How the results depend on the processing

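The 5 calls of Slc2a1, Hk1, Pfkl, Pfkp and Pfkfb3 as higher in NFFSE held in all 15 alternative settings. Of 134 values of single genes of the pathway under these settings, 127 kept their direction and their side of the threshold, 0 lost a call, 4 gained one (all Pfkm) and 3 turned in sign without a call in any setting. The last were Slc2a3, at 0.29 with the mean of all probe sets, and Pfkfb4, which ranged from -0.046 to 0.19 when single arrays were left out and was -0.046 without NFFSE replicate 2 and -0.019 without NFFS replicate 1. With the replicate number as a block, in a paired fit, 5 of the genes were higher and 1, Pfkm, was lower (adjusted p = 0.040), and 1 of the probe sets was called lower. Averaging all probe sets gave log2 differences of 1.83 for Pfkl and 2.004 for Pfkfb3. The filter on dim genes also called 1 gene lower, Pfkm (adjusted p = 0.0495). Without single arrays, 0 to 1 genes and 0 to 1 probe sets were called lower, the 1 being Pfkm without NFFSE replicate 3 or NFFS replicate 2, while it was not called in the other 11 settings. The block changed no other call of the 9 genes, and of the 20 probe sets it also ended the call of a dim one of Slc2a3. The dimmer probe set of Hk1 lost its call with the floor of 32 (adjusted p = 0.0645), without the intensity trend (adjusted p = 0.0601) and in the methods' t-test (adjusted p = 0.104). The methods' t-test with Benjamini-Hochberg adjustment called 5 probe sets higher. Over all probe sets it lost the 3 of Slc2a1 (adjusted p = 0.0528 to 0.061) and the brighter one of Pfkfb3 (adjusted p = 0.0555), genes that kept their calls over all genes (adjusted p = 0.0422 and 0.0443). Of all genes, it called 1262 higher and 1702 lower. Without the intensity trend 1323 of all genes were higher, and with arrays centered on their medians 1784 were lower. All 6 isozyme ratios kept their sign in each of the settings run on them, and the paired exact test gave p = 0.25 for each, the smallest it allows. No alternative to the authors' background correction and probe summary could be run, and signals near 22.7 carry no reliable order.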
